A study of Mus musculus and Rattus norvegicus with 85 samples.

Results

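Lungs of mice that had breathed 90 ppm chloroprene were compared after 15 and after 5 exposure days. Chloroprene is the chlorinated monomer of neoprene rubber and is metabolized to reactive epoxides. The groups, as named in the sample titles, held 5 mice each, mice 177 to 181 after 15 days and mice 165 to 169 after 5 days, and these 10 arrays were 10 of 85 in the series. All were female B6C3F1/Crl hybrids, 10 weeks old when exposure began, and inhaled the vapour in air with the whole body, 6 hours a day on 5 days a week. They were killed on day 19 (15 exposure days) or on day 5, and RNA of the right lung was hybridized to Affymetrix arrays. For comparison there were 5 mice in each of the groups at 0.3, 2 and 13 ppm after 15 days, and in each of those at 0, 0.3, 2 and 13 ppm after 5 days. No mice at 0 ppm after 15 days were analysed, so a change with time alone was set against the other concentrations.

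The airways of the lung are lined by multiciliated cells, whose beating cilia move mucus, and by club cells, which carry out much of the oxidative metabolism of inhaled chemicals. A cell that becomes multiciliated leaves the cell cycle and makes many centrioles, which dock at its surface as the bases of the cilia. This centriole production runs on a reduced form of the cell cycle machinery, with its own cyclins, and takes place mostly at deuterosomes, bodies found in these cells. Genes that build the cilium itself stay on in the mature cell, while those of centriole production are on for a short time during differentiation. Club cells can divide and give rise to new multiciliated cells after injury.

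Values are the deposited log2 signals, in which a step of 1 is a doubling of signal. A change is the 15-day mean minus the 5-day mean ± the standard error of the limma fit, and levels are mean ± SD, with n = 5 mice per group. Genes are said to rise or fall where limma's p, adjusted by Benjamini-Hochberg over 13796 genes, was under 0.05. The lung was recognizable from its markers in all 10 mice: Sftpc, the surfactant protein of alveolar type 2 cells, lay at 15.22 to 15.31, Scgb1a1, the secretory protein of club cells, at 15.10 to 15.25, and Ager, a marker of alveolar type 1 cells, at 14.85 to 15.09. These lie near the highest signals in the table, where differences can be compressed. Each array holds RNA of the right lung with all its cell types, so fewer cells of a type and less RNA per cell cannot be told apart.

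The arrays were not alike in their technical controls. The poly-A spike-in controls, bacterial RNAs added during labelling, had mean signals in 3 ranges: 5.35 to 5.65 on 11 arrays, 6.31 to 6.77 on 9 arrays and 8.29 to 9.39 on 25 arrays. The middle range held 1 mouse of each of the 9 groups, mouse 179 after 15 days and mouse 167 after 5 days at 90 ppm. The low range held 15-day mice only, among them mice 177 and 180. Mice 178 and 181, whose animal numbers end in a letter, lay in the high range with 4 of the 5-day mice at 90 ppm. For mice 178, 179 and 181 the labels' duration field says 5 days, against 15 in the title and the treatment text. Among the 15-day mice of all concentrations, 241 of 13796 genes differed between the 4 arrays of the middle range and the other 16, with concentration in the model. For this reason the main results are also given with the array set as a block and, for single genes, within the middle range. Unless the spike-in range is named, the block is the array set taken from the labels. This set is given by a letter in the title or else by the duration field, and it is not the spike-in range. Of the 15-day mice at 90 ppm only mouse 179 shared its label set with the 5-day mice. The block is therefore partly confounded with time and does not remove differences between the spike-in ranges. Within the middle range the comparison is mouse 179 minus mouse 167, which has no replicate and no test. The RNA integrity number averaged 9.38 ± 0.44 after 15 days and 9.02 ± 0.41 after 5 days (exact permutation test, two-sided, p = 0.27). The lowest of each group were mouse 179 (8.6) and mouse 167 (8.3), the pair compared within the middle range. The signal of 3' over 5' control probe sets (log2), a measure of RNA degradation, averaged 0.169 ± 0.131 after 15 days and 0.251 ± 0.0648 after 5 days (exact permutation test, two-sided, p = 0.254). These means hide a split among the 15-day mice. Lettered mice 178 and 181 were at 0.053 and 0.033, below all 5-day mice at 90 ppm (0.177 to 0.340), and mouse 179 was at 0.353.

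Few genes separated the times at 90 ppm. Of 13796 genes, 4 rose (0.029%) and 13 fell (0.0942%), which is 17 or 0.123% in all, and 6 changed by at least 1.5-fold (0.0435%), all of them downward. Among these 6, Aurka was nearest the limit, at 1.51-fold. The genes with the smallest p were Ccna1, Ccno, Deup1 and Lrrc23, all lower after 15 days. The other fallen genes were Foxn4, Poc1a, Katnal2, Ccdc61, Aurka, H2ax, Kdm6b, Rptoros and Sec14l4. With the array set from the labels as a block, 12 genes passed (0.087%), 5 higher (0.0362%) and 7 lower (0.0507%), and 6 of the 17 were among them: Ccna1, Ccno, Deup1, Lrrc23, Katnal2 and Pdzrn3. With the spike-in range as the block 153 passed (1.11%), 69 higher (0.5%) and 84 lower (0.609%), all 17 among them. Without mouse 179 there were 142 genes that passed, and without mouse 167 there were 49. The calls also moved when a measure of RNA quality was entered into the fit. When each array's integrity number was entered, 16 genes passed, and 10 of the 17 were among them. When the log2 3' over 5' signal was entered, 12 passed, and 9 of the 17 were among them. Ccna1, Ccno, Deup1 and Lrrc23 passed in both.

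Ccna1 encodes cyclin A1, a cyclin best known from male germ cells that is also made in differentiating multiciliated cells. Its signal was 6.36, 6.41, 6.27, 6.26 and 6.52 in mice 177 to 181 after 15 days, against 8.22, 7.73, 7.81, 8.38 and 7.25 in mice 165 to 169 after 5 days. All 15-day mice lay below all 5-day mice, and all 15-day mice lay under 6.67, the value a probe set had to exceed on at least 5 arrays to be tested. Ccna1 exceeded it on 7 of 45 arrays, the 5 of the 5-day mice at 90 ppm and 2 others, so it was tested because of the group in which it is high. The fitted change was -1.52 ± 0.15 (95% interval -1.81 to -1.22, adjusted p = 9e-09, limma), but a signal this low gives no exact fold. With all signals under 6.67 raised to it, Ccna1 was at least 2.31-fold lower after 15 days (-1.21 ± 0.10, adjusted p = 2.9e-11, limma). With the array set as a block it was -1.31 ± 0.16 (adjusted p = 1.3e-05, limma), and between mouse 179 and mouse 167 it was -1.54.

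Ccno encodes cyclin O, which multiciliated cells need to make their centrioles in number. Its signal was 7.93, 7.29, 7.71, 7.77 and 7.67 in the 15-day mice, against 9.48, 8.63, 8.89, 9.36 and 8.69 in the 5-day mice. The groups did not overlap. Ccno was 2.53-fold lower after 15 days (-1.34 ± 0.14, adjusted p = 8.3e-08, limma), with -1.18 ± 0.16 under the block (adjusted p = 0.00011) and -1.17 between the mice of the middle range.

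Deup1 encodes a scaffold protein of the deuterosome. It was at 7.38, 7.61, 7.71, 7.54 and 7.67 in the 15-day mice and at 8.50, 8.66, 8.56, 8.99 and 8.58 in the 5-day mice, again without overlap. It was 2.11-fold lower after 15 days (-1.08 ± 0.13, adjusted p = 1.6e-06, limma), with -0.92 ± 0.14 under the block (adjusted p = 0.00074) and -0.85 within the middle range. Ccno and Deup1 were above 6.67 on all 45 arrays and passed in all 24 alternatives, and Ccna1 in the 23 in which it was tested, the stricter filter having removed it. Calls of the other genes were less stable: Lrrc23 passed in 23 of the 24, Pdzrn3 in 22, Poc1a in 18, Foxn4 in 17, Aurka in 16, H2ax in 15, Katnal2 in 13, Ccdc61 in 12, Sec14l4 and Tmem243 in 11, Kdm6b, Rptoros and Pi15 in 10 and Ghrl in 9. Ghrl lost its call on leaving out any of 9 of the 10 mice, Kdm6b, Rptoros and Sec14l4 on leaving out any of 8.

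Lrrc23 encodes a protein of the radial spokes of motile cilia and sperm tails. Its signal was 10.40, 10.44, 10.41, 10.66 and 10.30 in the 15-day mice, against 11.46, 11.10, 10.78, 11.53 and 10.86 in the 5-day mice. The highest 15-day mouse and the lowest 5-day mouse were close. The change was -0.70 ± 0.11 (1.63-fold lower, adjusted p = 0.00059, limma), -0.62 ± 0.13 under the block (adjusted p = 0.04) and -0.37 within the middle range. It missed the threshold when only the 10 arrays at 90 ppm were fitted (adjusted p = 0.48).

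**Figure D1:**
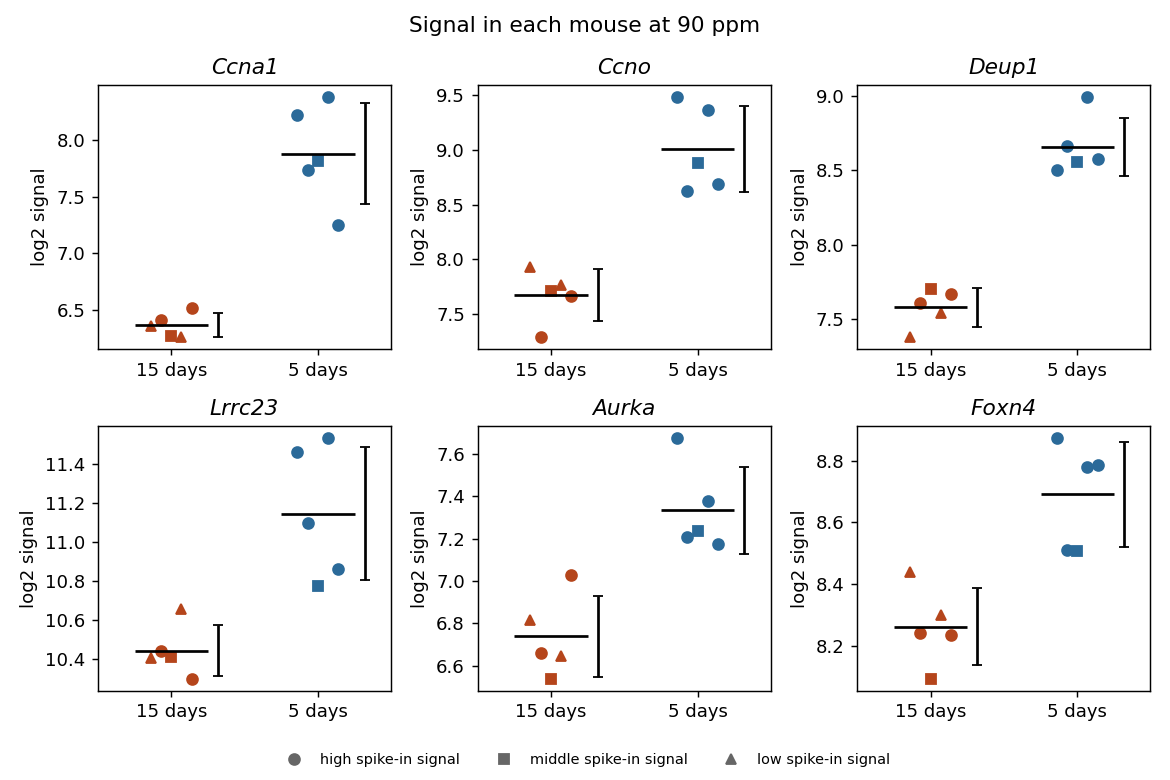
Deposited log2 signal of 6 of the 13 fallen genes in each mouse at 90 ppm, after 15 days (left, red) and 5 days (right, blue). Lines are group means, bars are the SD over 5 mice, and the marker shape gives the range of the poly-A spike-in signal. In these 6 genes, picked from those already called lower, every 15-day mouse lies below every 5-day mouse. Of all 17 called genes, 12 showed no overlap, and the fallen genes Katnal2 and Kdm6b, not drawn, overlap. The share of all genes without overlap was not counted.

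The promoters of these 4 genes are shown because their transcripts moved together. Each is the run of 250 bases before the gene's start in the RefSeq table (GRCm38.p6), 5′ to 3′ on the gene's strand: chr3:55055056-55055305 (minus strand), chr13:112987552-112987801 (plus strand), chr9:15627847-15628096 (minus strand; of 2 starts in the table the one further downstream) and chr6:124779728-124779977 (minus strand). Capitals mark GTTGCCA, the core of the X-box to which RFX factors, regulators of cilia genes, bind, on either strand.
Ccna1: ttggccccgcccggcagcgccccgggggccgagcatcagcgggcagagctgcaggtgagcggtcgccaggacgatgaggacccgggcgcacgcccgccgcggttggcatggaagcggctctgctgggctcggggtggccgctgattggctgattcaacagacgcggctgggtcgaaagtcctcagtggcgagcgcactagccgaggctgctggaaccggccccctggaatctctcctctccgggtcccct
Ccno: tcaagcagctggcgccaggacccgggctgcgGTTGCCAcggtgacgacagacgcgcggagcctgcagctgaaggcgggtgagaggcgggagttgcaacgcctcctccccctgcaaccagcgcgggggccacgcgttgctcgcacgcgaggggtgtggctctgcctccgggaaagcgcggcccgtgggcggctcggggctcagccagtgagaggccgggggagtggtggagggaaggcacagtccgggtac
Deup1: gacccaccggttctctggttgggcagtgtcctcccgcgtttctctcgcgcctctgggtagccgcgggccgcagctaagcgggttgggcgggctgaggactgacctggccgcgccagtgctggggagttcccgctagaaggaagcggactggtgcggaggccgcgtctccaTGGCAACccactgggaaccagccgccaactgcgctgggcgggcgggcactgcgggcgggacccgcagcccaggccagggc
Lrrc23: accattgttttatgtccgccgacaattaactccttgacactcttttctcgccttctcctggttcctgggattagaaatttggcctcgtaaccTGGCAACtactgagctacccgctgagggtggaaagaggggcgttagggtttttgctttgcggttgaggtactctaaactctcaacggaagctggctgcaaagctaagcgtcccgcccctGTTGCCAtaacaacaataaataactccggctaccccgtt

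Ccno held this motif at -219 to -213 from its start, Deup1 at -80 to -74 on the opposite strand, and Lrrc23 at -158 to -152 on the opposite strand and at -39 to -33. Ccna1 held none in this window. Among all 32851 promoters of the table, 3.66% held the motif on either strand. Of the 13 fallen genes 9 were in the table, and 3 of these held it. Here a gene counted if any of its starts in the table held the motif, while the shares over all promoters count each start. TTTGAA, the core of the cell cycle homology region found in many mitotic genes, was in 1 of the 9 (Rptoros) and in 16.0% of all promoters. GCGGGAA, a form of the E2F site, was in 1 (Deup1) and in 3.82%, and CCAAT was in 3 (Aurka, Ccdc61 and Ccna1) and in 33.8%, both strands searched. No match overlapped another. The motifs were chosen with the fallen genes known, and a match is a run of letters, not a measured site.

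Foxn4, Poc1a, Katnal2 and Ccdc61 changed less. Foxn4, a transcription factor that in frog embryos acts in multiciliated cells, was at 8.44, 8.24, 8.09, 8.30 and 8.24 in the 15-day mice and at 8.87, 8.51, 8.51, 8.78 and 8.79 in the 5-day mice. The groups did not overlap, and the change was -0.43 ± 0.08 (adjusted p = 0.013, limma; 0.091 under the block). Poc1a, a structural protein of centrioles, was at 8.20, 8.08, 8.21, 8.00 and 8.38 after 15 days and at 9.14, 8.54, 8.42, 8.76 and 8.63 after 5 days. Its change was -0.52 ± 0.10 (adjusted p = 0.012, limma; 0.21 under the block).

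Katnal2 encodes a katanin-like protein of microtubules. It averaged 6.59 ± 0.23 after 15 days and 7.11 ± 0.22 after 5 days, overlapping in 1 mouse, with a change of -0.51 ± 0.11 (adjusted p = 0.027, limma; 0.04 under the block). It exceeded 6.67 on 10 of 45 arrays, 2 of the 15-day and all 5 of the 5-day mice at 90 ppm and 3 others, and with lower signals raised to that value the change was -0.37 ± 0.06 (adjusted p = 6e-04, limma). The stricter filter removed it. Its other probe set gave -0.37 ± 0.12 (adjusted p = 0.19). Ccdc61, a protein of centrioles and basal bodies, averaged 8.66 ± 0.09 after 15 days and 9.01 ± 0.14 after 5 days (-0.35 ± 0.08, adjusted p = 0.036, limma; 0.20 under the block).

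Of the genes listed for replication and mitosis or as histones, Aurka and H2ax fell, while others missed the threshold. Aurka, the mitotic kinase Aurora A, was at 6.82, 6.66, 6.54, 6.65 and 7.03 in the 15-day mice, against 7.67, 7.21, 7.24, 7.38 and 7.17 in the 5-day mice. It fell by 0.59 ± 0.12 without overlap (adjusted p = 0.027, limma; 0.20 under the block). Only 2 of the 15-day mice exceeded 6.67. With lower signals raised to that value Aurka was 1.48-fold lower (-0.56 ± 0.11, adjusted p = 0.019, limma). H2ax, the histone variant that is phosphorylated at DNA breaks, averaged 9.81 ± 0.11 after 15 days and 10.27 ± 0.25 after 5 days (-0.46 ± 0.10, adjusted p = 0.036; 0.20 under the block). The kinase Cdk1, which drives entry into mitosis, was at 8.33, 8.41, 8.29, 8.15 and 8.76 after 15 days and at 9.44, 8.81, 8.90, 8.97 and 8.96 after 5 days, a change of -0.63 ± 0.16 that missed the threshold (adjusted p = 0.087, limma). Cdc20, the activator of the anaphase-promoting complex, was at -0.72 ± 0.21 (adjusted p = 0.14), and at -0.59 ± 0.16 (adjusted p = 0.087) and -0.36 ± 0.11 (adjusted p = 0.17) on its other probe sets. Mki67, the common marker of dividing cells, averaged 6.59 ± 0.515 after 15 days and 6.68 ± 0.41 after 5 days, with a change of -0.09 ± 0.24 (adjusted p = 0.98). Its signals lay near 6.67, with mice of both groups under it (down to 6.06 after 15 days and 6.24 after 5 days). A change in Mki67 may not show at this level.

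Over the whole list of replication and mitosis genes, 1 of 52 fell (Aurka) and 0 rose by limma's test, against 0.0942% and 0.029% of all genes, and 10 were lower and 0 higher at an unadjusted p under 0.05, where over all genes 745 were lower (5.4%) and 514 higher (3.73%). The median change of the list was -0.12, against -0.01 over all genes, or -0.06 against 0.03 with the array set from the labels as a block. Of the 52 genes 45 lay below 0, where over all 13796 genes 7624 lay below 0 and 6172 above. At 13, 2 and 0.3 ppm the medians of the same list, also 15 minus 5 days, were -0.002, -0.002 and 0.21. Of 15 genes on the list of histones of replication only 3 were tested (H1f2, H2az1 and H2ax), and 1 of these fell (H2ax). These are too few to describe the histones of replication.

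Of 44 ciliated cell genes tested, 3 fell (Ccno, Deup1 and Lrrc23) and 0 rose, by limma's test, against 0.0942% and 0.029% of all genes, and at an unadjusted p under 0.05 there were 5 lower and 0 higher, against 5.4% and 3.73% of all genes. The list's median was -0.02, beside the -0.01 of all genes (0.08 beside 0.03 under the block), with 26 members below and 18 above 0. Foxj1, the transcription factor that switches on the genes of motile cilia, was at 10.73, 9.39, 10.09, 10.84 and 9.71 in the 15-day mice and at 10.31, 9.99, 10.10, 10.48 and 10.03 in the 5-day mice. The 15-day mice spread on both sides of the 5-day mice, and the change was -0.03 ± 0.21 (95% interval -0.46 to 0.40, adjusted p = 0.99). The lowest 15-day mice were 178 and 181, the lettered ones, and the highest were 177 and 180 of the low spike-in range. With the spike-in range as a block the change was -0.35 ± 0.16 (adjusted p = 0.26), and over the 24 alternatives it ran from -0.35 to 0.60.

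To follow centriole production more closely, 2 more lists were written after the fallen genes were known, so their counts only describe them. Of 12 tested regulators of the multiciliated state 3 fell (Ccna1, Ccno and Foxn4), against 0.0942% of all genes, and 0 rose. Their median was -0.11 (-0.07 under the block), and 10 lay below 0, beside 7624 of all 13796 genes. Myb, a transcription factor of early multiciliated cells, was at -0.43 ± 0.10 (adjusted p = 0.066) on its brightest probe set and at -0.17 ± 0.14 (adjusted p = 0.74) and 0.14 ± 0.17 (adjusted p = 0.86) on its other probe sets. Of 24 tested genes of centriole assembly 2 fell (Deup1 and Poc1a) and 0 rose, and at an unadjusted p under 0.05 there were 6 lower and 2 higher, against 5.4% and 3.73% of all genes. Their median was -0.06 (-0.006 under the block), beside -0.21, -0.12 and -0.11 at 13, 2 and 0.3 ppm, and 18 lay below 0 at 90 ppm. Cby1, which acts where centrioles dock, was at -0.37 ± 0.09 (adjusted p = 0.056). Plk4, the kinase that starts centriole duplication, was at -0.49 ± 0.23 (adjusted p = 0.52), Cep152 at -0.17 ± 0.10 (adjusted p = 0.66) and Cetn2, a centrin, at 0.08 ± 0.11 (adjusted p = 0.91). Mcidas, Gmnc and Ccdc78 were not analysed here, and Cdc20b and Stil were below the signal filter.

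**Figure D2:**
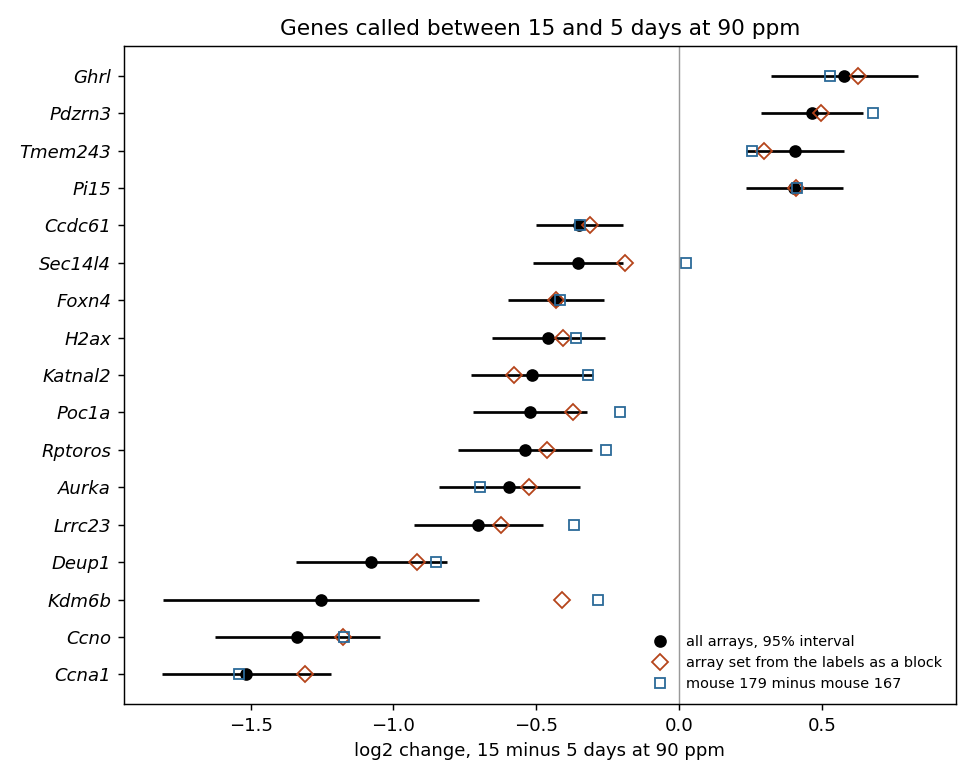
Log2 change, 15 minus 5 days at 90 ppm, of the 17 genes that passed. Filled circles with 95% intervals are the fit over all arrays, diamonds the fit with the array set from the labels as a block, and squares the difference between mouse 179 and mouse 167; Sec14l4 and Kdm6b lie near 0 in the last of these, at 0.02 and -0.28.

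At 90 ppm the same genes had been high after 5 days, and the levels over the other concentrations place the change. Ccna1 was, from 0.3 to 90 ppm after 15 days, at 5.76 ± 0.05, 5.90 ± 0.28, 6.32 ± 0.35 and 6.36 ± 0.11. From 0 to 90 ppm after 5 days it was at 5.78 ± 0.21, 5.79 ± 0.14, 5.91 ± 0.12, 6.58 ± 0.16 and 7.88 ± 0.44. Ccno was at 7.59 ± 0.13, 7.62 ± 0.28, 7.80 ± 0.16 and 7.67 ± 0.24 after 15 days, and at 7.46 ± 0.10, 7.52 ± 0.15, 7.73 ± 0.32, 8.28 ± 0.14 and 9.01 ± 0.39 after 5 days, in the same orders. After 5 days the step in means from 13 to 90 ppm was larger than the SD of either group. After 15 days the Ccno ranges of all 4 concentrations overlapped, while those of Ccna1 at 90 and 0.3 ppm did not. Deup1 was at 7.28 ± 0.18, 7.23 ± 0.17, 7.41 ± 0.14 and 7.58 ± 0.13 after 15 days, and at 7.14 ± 0.24, 7.24 ± 0.13, 7.55 ± 0.28, 8.01 ± 0.34 and 8.66 ± 0.20 after 5 days.

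At 90 ppm 1100 genes differed from 0.3 ppm after 15 days (7.97%), 646 higher (4.68%) and 454 lower (3.29%), with 278 by at least 1.5-fold (2.02%). From 0 ppm after 5 days 2254 differed (16.3%), 1240 higher (8.99%) and 1014 lower (7.35%), with 577 by at least 1.5-fold (4.18%). Ccna1 was 0.60 above 0.3 ppm after 15 days (adjusted p = 0.006), where both groups lay under 6.67 and give no fold, beside at least 2.31-fold above 0 ppm after 5 days (fitted difference 2.10, adjusted p = 3.1e-14). Lrrc23 was 1.47-fold above 0.3 ppm after 15 days (0.56, adjusted p = 0.00082), beside 2.50-fold above 0 ppm after 5 days (1.32, adjusted p = 8.9e-12). Ccno was at 0.08 against 0.3 ppm after 15 days (95% interval -0.21 to 0.37, adjusted p = 0.86), beside 1.55 against 0 ppm after 5 days (adjusted p = 9.2e-11). Deup1 was at 0.30 (95% interval 0.03 to 0.56, adjusted p = 0.18), beside 1.52 (adjusted p = 1.4e-11). These are limma values. The reference mice differ between the times, and the 5-day mice at 90 ppm enter both these values and the change with time.

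**Figure D3:**
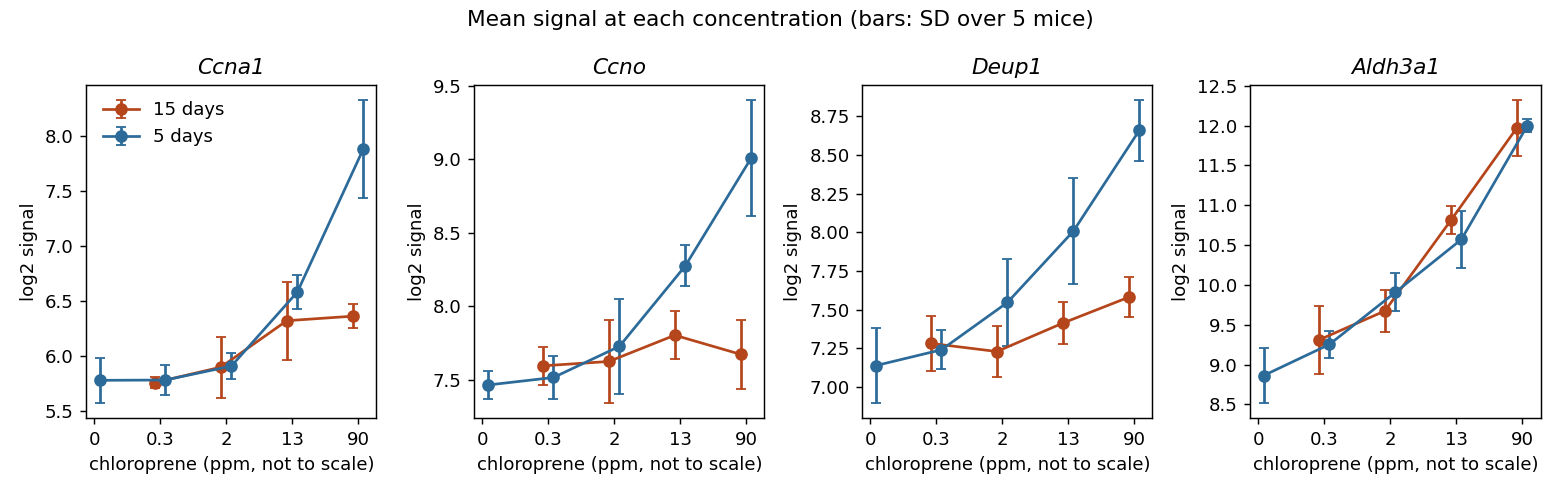
Mean log2 signal ± SD (5 mice) at each chloroprene concentration (ppm, categories not to scale) after 15 days (red) and 5 days (blue); there is no 0 ppm group after 15 days. For Ccna1, Ccno and Deup1 the times lie furthest apart at 90 ppm, and Deup1 is also lower after 15 days at 13 ppm (7.41 after 15 days, 8.01 after 5 days), while Aldh3a1 reaches 11.97 ± 0.35 after 15 days and 11.998 ± 0.0806 after 5 days.

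Whether the change with time at 90 ppm differed from that at lower concentrations was tested directly. Against 0.3 ppm, the change was lower at 90 ppm for 6 genes (0.0435%) and higher for 0, by limma's test, with 882 genes at an unadjusted p under 0.05. The 6 were Ccna1, with a difference between the changes of -1.49 ± 0.21 (adjusted p = 0.00012), Ccno at -1.42 ± 0.20 (adjusted p = 0.00012), Deup1 at -1.12 ± 0.18 (adjusted p = 0.0018), Cdk1 at -1.21 ± 0.23 (adjusted p = 0.017), Aurka at -0.85 ± 0.17 (adjusted p = 0.034) and Cdc20 at -1.45 ± 0.29 (adjusted p = 0.034). For Ccna1 the other 3 groups in this difference averaged under 6.67, and it was tested because of the 5-day group at 90 ppm. With signals under 6.67 raised to it, its difference was -1.21 ± 0.14 from 0.3 ppm (adjusted p = 7.6e-07, limma) and -1.21 ± 0.11 from the mean of the 3 lower concentrations (adjusted p = 2.1e-09). Raised in the same way, Aurka was at -0.77 ± 0.16 from 0.3 ppm (adjusted p = 0.047, limma). With the array set from the labels as a block, 4 of the 6 passed, and Aurka and Cdc20 missed the threshold (adjusted p = 0.053 for each).

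For the mitotic genes among them, both terms of the difference were away from 0, though none passed at 0.3 ppm. Cdk1 was at -0.63 at 90 ppm and at 0.58 at 0.3 ppm (adjusted p = 0.14), Cdc20 at -0.72 and 0.73 (adjusted p = 0.15) and Aurka at -0.59 and 0.26 (adjusted p = 0.34). For Ccna1, Ccno and Deup1 the change at 0.3 ppm was -0.02, 0.08 and 0.04. At 13 ppm Deup1 also fell (-0.59 ± 0.13, adjusted p = 0.023, limma), and Ccno was at -0.47 ± 0.14 (adjusted p = 0.059), Lrrc23 at -0.33 ± 0.11 (adjusted p = 0.079) and Ccna1 at -0.26 ± 0.15 (adjusted p = 0.26). Of the 17 genes called at 90 ppm, 3 were also called at 13 ppm, Deup1 among them, against 2.28% of all genes. Against the mean change at 0.3, 2 and 13 ppm, 3 genes were lower at 90 ppm (0.0217%) and 0 higher, with 1454 at an unadjusted p under 0.05. They were Ccna1 (-1.42 ± 0.17, adjusted p = 3.1e-06, with the same limit on its low signals), Ccno (-1.17 ± 0.17, adjusted p = 9e-05) and Deup1 (-0.79 ± 0.15, adjusted p = 0.027). Within the middle range of spike-in signal, Ccna1 changed by -1.54 between the 2 mice at 90 ppm, by 0.28 at 13 ppm, 0.39 at 2 ppm and -0.12 at 0.3 ppm. Deup1 changed there by -0.85 at 90 ppm, -0.76 at 13 ppm, -0.55 at 2 ppm and 0.39 at 0.3 ppm, 1 pair of mice each.

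The number of genes that passed between the times was 314 at 13 ppm (2.28%), 159 higher (1.15%) and 155 lower (1.12%). It was 6 at 2 ppm (0.0435%), 2 higher (0.0145%) and 4 lower (0.029%), and 0 at 0.3 ppm, where 1898 had an unadjusted p under 0.05 by limma. The median size of a change was 0.08 at 90 ppm and 0.10 at 0.3 ppm. At 13 ppm mice 158, 159, 160 and 161 after 15 days lay in the low spike-in range. Mice 149, 151, 152 and 153 after 5 days lay in the high range. Time and spike-in range were thus more closely tied at 13 than at 90 ppm, and their counts are not like for like. This limit also holds for the fall of Deup1 at 13 ppm and enters the mean change over 0.3, 2 and 13 ppm.

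Many enzymes that handle reactive chemicals were higher at 90 ppm than at the lowest concentration of each time. NRF2 is the transcription factor that answers electrophiles and oxidants by switching on such enzymes. Of 28 of its targets, 0 passed by limma between 15 and 5 days, with 5 higher and 1 lower at an unadjusted p under 0.05, against 3.73% and 5.4% of all genes. Against the lowest concentration, 23 of the 28 were higher after 15 days, against 4.68% of all genes, and 25 after 5 days, against 8.99%. The median change was 0.08, against -0.01 over all genes, and 22 of the 28 lay above 0, beside 6172 of all 13796 genes. Of 27 genes of glutathione synthesis and conjugation 0 passed (median 0.05, 3 higher and 0 lower at an unadjusted p under 0.05), and 15 were higher than at the lowest concentration after 15 days and 16 after 5 days (4.68% and 8.99% of all genes). Of 32 cytochrome P450, carboxylesterase and related genes 0 passed (median -0.04, or 0.04 under the block, 3 higher and 3 lower at an unadjusted p under 0.05), and 20 were higher than at the lowest concentration after 15 days and 24 after 5 days (likewise 4.68% and 8.99% of all genes).

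Nqo1, a quinone reductase, was at 9.93, 9.84, 9.73, 9.95 and 10.21 in the 15-day mice and at 9.61, 9.58, 9.54, 9.88 and 9.70 in the 5-day mice, overlapping, with a change of 0.27 ± 0.13 (95% interval 0.0046 to 0.53, adjusted p = 0.54). It was 5.12-fold above 0.3 ppm after 15 days and 4.49-fold above 0 ppm after 5 days. Aldh3a1, an aldehyde dehydrogenase, was 6.32-fold above 0.3 ppm after 15 days and 8.79-fold above 0 ppm after 5 days, and its change with time at 90 ppm was -0.03 ± 0.17 (95% interval -0.38 to 0.32). Ces1g, a carboxylesterase, was at -0.35 ± 0.18 (adjusted p = 0.57), Gclc and Gclm, both parts of glutamate-cysteine ligase, which makes the precursor of glutathione, at 0.18 ± 0.13 (adjusted p = 0.77; on the other probe set 0.46 ± 0.14, adjusted p = 0.14) and 0.27 ± 0.09 (adjusted p = 0.30; on the other 0.24 ± 0.19, adjusted p = 0.70), and the glutathione transferase Gsta2 at 0.06 ± 0.15 (adjusted p = 0.97). A miss of the threshold does not show equal levels; the intervals give how far the times may differ.

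Hmox1, the haem oxygenase, came closest to a rise among them. Its signal was 11.08, 10.63, 10.37, 10.80 and 10.78 in the 15-day mice, against 10.16, 10.17, 10.01, 9.86 and 10.22 in the 5-day mice, without overlap. The change was 0.65 ± 0.15 (1.57-fold higher, 95% interval 0.34 to 0.95) and lay just past the threshold (adjusted p = 0.053, limma; 0.33 under the block). Over the 24 alternatives it ran between 0.50 and 0.85. The metallothionein Mt2, which binds metal ions, was at 0.42 ± 0.15 (adjusted p = 0.32) and Mt1 at 0.35 ± 0.14 (adjusted p = 0.39). Cyp2f2, the cytochrome P450 of club cells, was at 0.01 ± 0.04 with both groups near 14.9, where signals may be compressed, and did not pass against the lowest concentration at either time (adjusted p = 0.53 after 15 days and 0.32 after 5 days). Cyp2e1, which also oxidizes small chlorinated compounds, was at -0.12 ± 0.29 (adjusted p = 0.97), with 0.13 against 0.3 ppm after 15 days (adjusted p = 0.89) and 0.88 against 0 ppm after 5 days (adjusted p = 0.031).

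**Figure D4:**
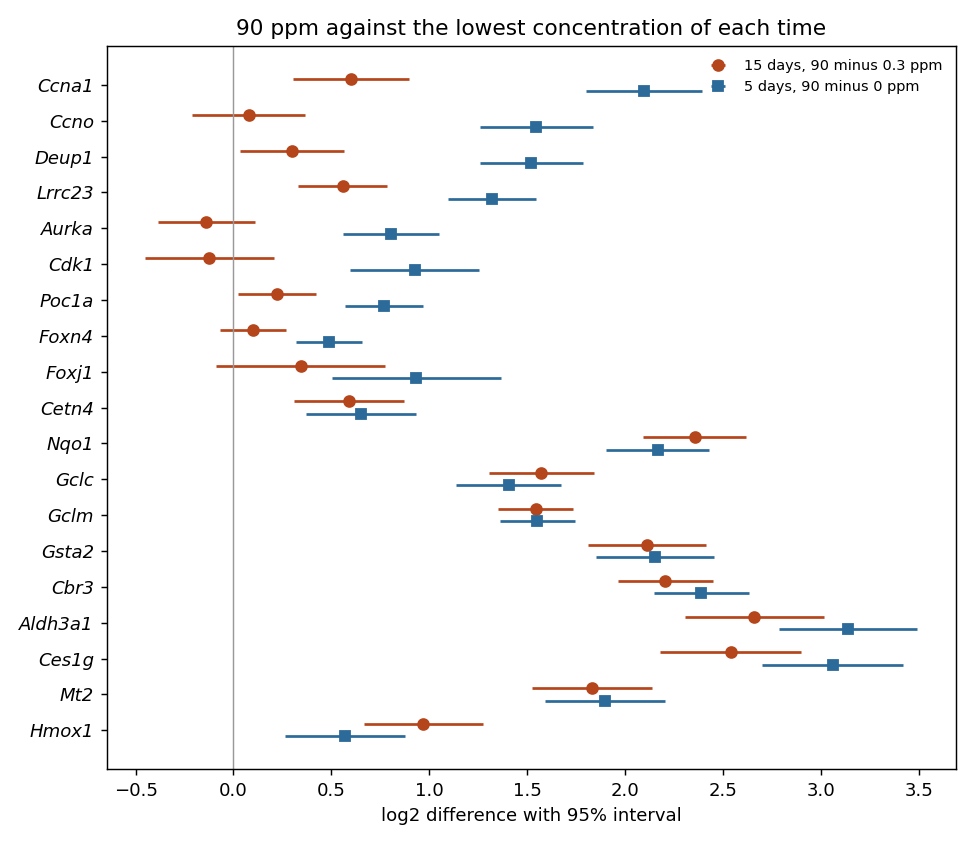
Log2 difference with 95% interval between 90 ppm and the lowest concentration of each time, 90 minus 0.3 ppm after 15 days (red circles) and 90 minus 0 ppm after 5 days (blue squares). For Ccno the points stand at 0.08 after 15 days and 1.55 after 5 days, for Nqo1 at 2.36 after 15 days and 2.17 after 5 days.

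The 4 genes that rose were Ghrl, Pdzrn3, Tmem243 and Pi15. Pdzrn3, a ubiquitin ligase, was at 9.92, 9.78, 10.09, 9.88 and 9.80 in the 15-day mice, against 9.45, 9.47, 9.42, 9.46 and 9.35 in the 5-day mice, without overlap. It rose by 0.46 ± 0.09 (adjusted p = 0.012, limma; 0.04 under the block), and was at -0.66 against 0 ppm after 5 days (adjusted p = 5.7e-07) and at -0.16 against 0.3 ppm after 15 days (adjusted p = 0.35). Ghrl, which encodes the hormone ghrelin, was at 7.92, 7.41, 7.37, 7.38 and 7.77 after 15 days and at 7.08, 6.93, 6.84, 6.98 and 7.13 after 5 days. It rose by 0.58 ± 0.13 (adjusted p = 0.043, limma; 0.13 under the block) and was 1.81-fold above 0.3 ppm after 15 days. Pi15, a peptidase inhibitor, rose by 0.40 ± 0.08 (adjusted p = 0.029; 0.13 under the block) and Tmem243, a membrane protein, by 0.40 ± 0.09 (adjusted p = 0.034; 0.27 under the block), each with 1 of the 15-day mice below the highest 5-day mouse. Pi15 was under 6.67 in all 5-day mice, and with such signals raised to that value its change was 0.10 ± 0.06 (adjusted p = 0.63). Dhdh, a dihydrodiol dehydrogenase, was at 1.09 ± 0.25 (adjusted p = 0.052), but all 5-day mice (at most 6.47) and mouse 179 (6.505) lay under 6.67. With such signals raised to that value its change was 0.55 ± 0.15 (adjusted p = 0.098). The unraised change was 0.73 to 0.85 at the lower concentrations and 0.04 between mouse 179 and mouse 167.

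Kdm6b encodes a histone demethylase. Its signal was 10.66, 10.68, 11.97, 10.63 and 10.63 in the 15-day mice, against 12.39, 11.92, 12.26, 12.09 and 12.18 in the 5-day mice. Mouse 179 alone among the 15-day mice lay at the 5-day level. The change was -1.25 ± 0.27 at 90 ppm (adjusted p = 0.04, limma), and -1.13, -0.97 and -1.11 at 13, 2 and 0.3 ppm. With the array set from the labels as a block it was -0.41 ± 0.20 (adjusted p = 0.52), with the spike-in range as a block -1.10 ± 0.21 (adjusted p = 0.0078, limma), between mouse 179 and mouse 167 it was -0.28, and other probe sets of Kdm6b gave 0.47 and 0.02. The 2 remaining fallen genes were Rptoros, a transcript opposite Rptor (-0.54 ± 0.12, adjusted p = 0.036; 0.23 under the block), and Sec14l4, a lipid-binding protein (-0.35 ± 0.08, adjusted p = 0.043; 0.42 under the block).

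**Figure D5:**
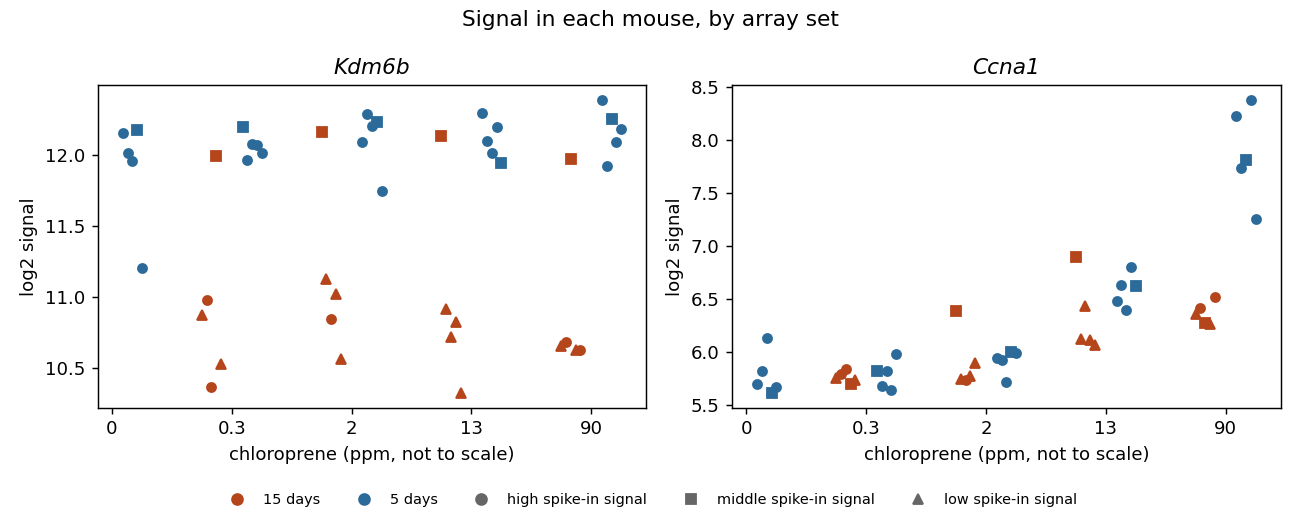
Log2 signal of Kdm6b (left) and Ccna1 (right) in every mouse, by concentration (ppm, categories not to scale), time (15 days red, 5 days blue) and range of the poly-A spike-in signal (marker shape). For Kdm6b the 15-day mouse of the middle range lies at 11.97 at 90 ppm, within the 5-day mice, whereas for Ccna1 at 90 ppm it lies at 6.27 with the other 15-day mice.

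Other lists described for these lungs held no called gene. Of 45 lists, 3 had a member that passed, those already given, and 42 had none, by limma's test. Their medians ran from -0.16 for heat shock genes to 0.25 for cardiac muscle genes (0.65 under the block). Beside the unadjusted counts that follow, 3.73% of all genes were higher and 5.4% lower at an unadjusted p under 0.05. Of 27 p53 targets 0 passed (median -0.05, 1 higher and 3 lower at an unadjusted p under 0.05): Cdkn1a, the cell cycle inhibitor, was at -0.29 ± 0.16 (adjusted p = 0.64) and Mdm2, which limits p53, at 0.18 ± 0.10 (adjusted p = 0.60). Of 30 B and plasma cell genes 0 passed (median 0.16, 4 higher and 0 lower at an unadjusted p under 0.05): Ms4a1, the B cell antigen CD20, was at 0.60 ± 0.30 (adjusted p = 0.56) and Ighm, the immunoglobulin heavy chain, picked after its value was seen, at 1.92 (adjusted p = 0.074). Of 21 clock genes 0 passed (median 0.08, or -0.01 under the block, 4 higher and 2 lower at an unadjusted p under 0.05), with the repressor Nr1d1 at 0.80 ± 0.23 (adjusted p = 0.13), Dbp at 0.63 ± 0.20 (adjusted p = 0.22; on its other probe set 0.74 ± 0.18, adjusted p = 0.079) and Ciart at 0.85 ± 0.20 (adjusted p = 0.053). Of the 21 clock genes 12 lay above 0 and 9 below. Among the latter were Cry1 at -0.39 (adjusted p = 0.47) and Arntl at -0.30 ± 0.135 (adjusted p = 0.48; on its other probe set 0.02, adjusted p = 0.97), by limma. Per1 was at 0.34 (adjusted p = 0.68) and Per2 at -0.05 (adjusted p = 0.99). The hour of killing is not given in the sources used here, and its part in these clock values was not tested. Of 25 genes that glucocorticoids induce 0 passed (median 0.02, or -0.08 under the block, 2 higher and 0 lower at an unadjusted p under 0.05), with Fkbp5 at 0.23 ± 0.42 (adjusted p = 0.95) and Zbtb16 at 0.44 ± 0.53 (adjusted p = 0.90), or 1.07 ± 0.29 (adjusted p = 0.097) and 0.06 ± 0.48 (adjusted p = 0.99) on its other probe sets. The cardiac muscle list had a mean level between 8.75 and 10.07 in the 15-day mice and between 9.21 and 9.90 in the 5-day mice. The source of this signal in the samples was not tested.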

How the data were processed

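The deposited mouse table holds log2 signals of 45 Affymetrix Mouse430_2 arrays, made by the authors; their summarization and normalization are not given in the sources used here; array medians ran from 7.27 to 7.37. RNA was extracted with Trizol and RNeasy, per the labels. Of 45101 probe sets, 34958 carried 1 gene symbol, updated through a RefSeq gene table that matched 34754, 932 carried several and 9211 none. Probe sets with signals above the 40th percentile (6.67) on at least 5 arrays were kept. For a gene with several, the kept one of highest mean signal stood for it (13796 genes). All 9 mouse groups were fitted together with limma 3.58.1 (R 4.3.3; 1 mean for every group, then eBayes); p-values were adjusted by Benjamini-Hochberg at 0.05, two-sided. The script was tested on simulated data. The 2 groups follow the titles. The labels give each array its own animal, and 5 arrays per group limit the precision.

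The comparisons, members and 45 gene lists were chosen with earlier results of these data known, and the 2 lists of multiciliated and centriole genes and the array sets after these values were seen. Named genes were the 15 largest called changes per direction (the 10 smallest p where fewer than 10 passed), up to 4 members of each list with a call, up to 5 per direction in the tests of a difference between concentrations (3 where none passed) and a fixed set of detoxification, division, clock, immune and lung genes. Promoters and genes are from RefSeq. Alternatives were other filters, normalization, probe set rules, covariates, moderation and subsets of arrays. The rat arrays were not used here.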

Additional observations from a re-analysis of the deposited data

Results flagged for a closer look

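The change with time differed between 90 and 0.3 ppm, by limma's test of that difference, for Ccna1 (-1.49), Cdc20 (-1.45), Ccno (-1.42), Cdk1 (-1.21), Deup1 (-1.12) and Aurka (-0.85), all log2. Against the mean change at 0.3, 2 and 13 ppm it differed for Ccna1 (-1.42), Ccno (-1.17) and Deup1 (-0.79).

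In 7 of 140 sets of 5 mice (70 genes, after 15 and after 5 days) 1 mouse stood apart from the other 4 by Dixon's criterion, which chance gives in about 1 of 20 sets. After 15 days, Kdm6b was at 11.97 in mouse 179, with the others between 10.63 and 10.68. In mouse 181, Cyp51, of cholesterol synthesis, was at 8.39, above the others at 8.17 to 8.23, and the histone gene H2az1 was at 12.18, above 11.83 to 11.91. The clock repressor Nr1d1 was at 10.80 in mouse 177, above 9.61 to 9.94. After 5 days, Cdk1 was at 9.44 in mouse 165, above 8.81 to 8.97, Per1, of the clock, at 10.01 in mouse 169, below 10.65 to 10.82, and Chn1 at 9.06 in mouse 169, below 9.22 to 9.28.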

How the results depend on the processing

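The number of genes called between 15 and 5 days at 90 ppm (17, of which 6 by at least 1.5-fold) moved with the arrays used; the cause was not tested. It was 34 (10 by 1.5-fold) with the mean of all kept probe sets, 152 (50) without the mice with conflicting durations, 7 without lettered mice, 3 (3) with only the 90 ppm arrays, 153 (25) with the spike-in set as a block and 178 (59) without the middle spike-in set, the last 2 chosen after seeing the data, as were the block from the labels, with 12, and the raised signals below. Leaving out 1 mouse gave 5 (mouse 168) to 142 (mouse 179) calls, 6 without mouse 169, 8 without mouse 178 or mouse 180, 10 without mouse 166, 11 without mouse 165 and 49 without mouse 167, and 4 to 50 by 1.5-fold. For the difference from 0.3 ppm (6) the count was 1 without conflicting mice, 2 without lettered mice, 11 with the spike-in block, and 3 (mouse 165 or mouse 180) to 11 (mouse 167) leaving out 1 mouse. For the difference from the mean of 0.3, 2 and 13 ppm (3) it was 5 without a filter, 1 without conflicting mice and 2 to 21 leaving out 1 mouse, 21 without mouse 177. Among the 17 called genes, signs turned for Kdm6b (0.47 and 0.021 on other probe sets), Tmem243 (-0.069 on another probe set) and Sec14l4 (0.022 between mouse 179 and mouse 167); among the other named genes, none of them called at 90 ppm, 22 turned sign under at least 1 alternative or probe set, Foxj1, Mki67, Cdkn1a, Fkbp5 and Myb among them. Raising signals under the filter to it gave 21 calls, 16 of the 17 among them and Pi15 not. No paired analysis was possible because the groups share no animal numbers.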
